A study of Mus musculus with 4 samples.

Results

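The cytosolic ribosomal protein genes were described in hematopoietic stem cells (HSC) and common lymphoid progenitors (CLP) of wild-type (WT) and GRK6-/- mice. Members were all genes whose symbol follows the naming pattern of these proteins (Rpl or Rps with a number, Rplp0 to Rplp2, and Rpsa). The pattern took 80 of the 12750 symbols listed in any library, 47 of the large and 33 of the small subunit. Mice were C57BL/6, and GRK6-/- mice and their WT littermates came from crosses of heterozygotes for a knockout of GRK6, a kinase of G protein-coupled receptors. Cells were sorted from bone marrow as Lin-c-kit+sca-1+ for HSC and Lin-c-kit+sca-1+Il-7Ra+ for CLP, and mice were, unless another age was named, between 8 and 12 weeks of age. RNA-seq was done on 1 library per population and genotype, each a pool of 13 to 15 picked cells from 3 to 4 mice whose cDNA had been amplified by PCR. With 1 library per group no difference could be tested, and each value below describes the libraries compared and has no replicate error.

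The cytosolic ribosome is built from a large subunit, which joins amino acids, and a small subunit, which reads the mRNA. Their proteins are needed in equal numbers, one of nearly every kind per ribosome, and their mRNAs are among the most abundant in growing cells. In vertebrates these mRNAs begin with a C and a run of pyrimidines (C or T), the 5′ terminal oligopyrimidine tract, through which mTOR signalling adjusts the translation of the whole set together. Blood formation is sensitive to their dose, since loss of one copy of several of these genes causes Diamond-Blackfan anaemia, a failure of red cell production.

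That shared tract is the sequence feature that sets these genes apart, so the annotated starts were read for it in the RefSeq promoters (GRCm38.p6, a later build than the mm9 of the expression values). Of the 80 members, 60 were matched. A C at the annotated start followed by at least 4 bases that are each C or T, read on the strand of the gene, was found in 13 of these 60 genes (21.7%), against 3.01% of all 27025 genes with a promoter. A run of at least 5 pyrimidines beginning with C within 10 bases of the start was found in 61.7% of the matched members and 33.8% of all genes. The annotated start is often not the base used most, so a missing match says nothing about a gene's mRNA. Below are 30 bases each, 15 before the start and 15 from it, with the pyrimidine run in capitals, first for 4 members that hold the tract at the start and then for 3 members whose levels ranged widely between libraries and whose annotated start holds none.
Rpl38, chr11:114668565-114668594, plus strand: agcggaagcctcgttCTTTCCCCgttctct
Rps15a, chr7:118116133-118116162, minus strand: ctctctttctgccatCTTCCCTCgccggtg
Rps18, chr17:33955651-33955680, minus strand: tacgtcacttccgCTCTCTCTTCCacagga
Rpl35, chr2:39005117-39005146, minus strand: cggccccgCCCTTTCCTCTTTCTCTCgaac
Rps15, chr10:80292416-80292445, plus strand: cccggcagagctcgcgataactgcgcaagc
Rps28, chr17:33824548-33824577, minus strand: ggtaccgcgtgcggtctcgcgagagcgaaa
Rpl22, first of its RefSeq starts, chr4:152324421-152324450, plus strand: cgctgCTTCTggaatgttccagctcccact
Capitals are counted from a C, so T directly before it is left in small letters. In Rpl38 and Rps15a the capitals open exactly at the annotated start, with T directly before them. In Rps18 and Rpl35 the capitals open 2 and 7 bases before the start. Rpl22 has a run of 5 pyrimidines that begins 10 bases before its start. Rpl38, which holds the tract, also ranged widely, with a highest value 4.74 times its lowest. The genes shown are chosen examples, and a link between the tract and the levels was not tested.

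The libraries held between 10056 and 11060 rows. From the steps between low values, depth was estimated at 2780000 to 4330000 fragments. The methods give 20000000 paired-end reads per lineage, so the estimate may be several times too low, and the fragment numbers given below with it. Grk6 had 42.7 FPKM (fragments scaled to transcript length and to the mapped fragments of the library) in the WT library and 89.4 in the GRK6-/- library of HSC, and 26.9 and 57.6 in those of CLP. Its level was thus higher in both libraries labelled GRK6-/-. One value covers the whole gene and cannot show whether a deleted part was absent, so it does not check the labels. Kit was found in all libraries, at 26.2 to 81.8 FPKM. Il7r, which encodes the receptor that marks CLP, had 120 FPKM in WT CLP, 75.1 in GRK6-/- CLP, 1.08 in GRK6-/- HSC and no row in WT HSC. Ly6a, which encodes Sca-1, was listed only in WT HSC, in a row it shares with other genes. Of 8 erythroid markers 4 to 5 had a row. Their summed level was 13.6 to 134 FPKM in the 3 other libraries and 17466 FPKM in GRK6-/- CLP, almost all of it from Hba-a2, while Hba-a1, Hbb-b1 and Hbb-b2 had no row in any library. Beta globin was listed as Beta-s, outside that list, with 18659 FPKM in GRK6-/- CLP and 6.24 to 31.7 FPKM elsewhere. Of 7 B-lineage markers 6 had a row in each CLP library, 1 in WT HSC and 3 in GRK6-/- HSC. They summed to 968 FPKM in GRK6-/- CLP and to 35.5 to 115 elsewhere, and Pax5 had no row in any library. The sum over 8 myeloid markers was between 7787 and 17805 FPKM in all 4, that over 4 T-lineage markers between 0.26 and 12.3, and that over 3 megakaryocyte markers between 6.41 and 122. In pools of this kind fewer cells of a type and less RNA per cell cannot be told apart.

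Ribosomal protein mRNAs were among the most abundant in every library. Their median level was 825 FPKM (WT) and 850 (GRK6-/-) in HSC, and 730 (WT) and 681 (GRK6-/-) in CLP, where the median over all rows was between 9.30 and 12.003 FPKM. At least 100 FPKM was reached by 73, 71, 72 and 72 members in the same order, although only 7.63% to 8.55% of all rows in a library reached it. Members took 39, 37, 35 and 36 of the 100 highest rows.

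Summed over members, the share of all FPKM was 21.0% (WT) and 21.7% (GRK6-/-) in HSC, and 24.8% (WT) and 16.4% (GRK6-/-) in CLP. The share in GRK6-/- CLP was the lowest of the 4, and without all globin rows, which held 6.00% of its sum, it was 17.4%. In WT CLP a single gene, Rps15, supplied 24.5% of the members' sum, and without Rps15 the share was 19.9%. With Rps15 left out, the order of the libraries therefore changed, and WT CLP was below both HSC libraries. It also changed without rows over 5000 FPKM, where the share was 16.6% (WT) and 15.3% (GRK6-/-) in HSC, and 14.8% (WT) and 15.9% (GRK6-/-) in CLP. GRK6-/- CLP was then second highest. That cut was made in each library and removed different members from each. Rps20, for example, was cut from WT HSC, GRK6-/- HSC and WT CLP (6154, 5897 and 6145 FPKM) but kept in GRK6-/- CLP (4065 FPKM). The cut therefore cannot show whether the order of the shares rests on a few very high rows.

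**Figure D1:**
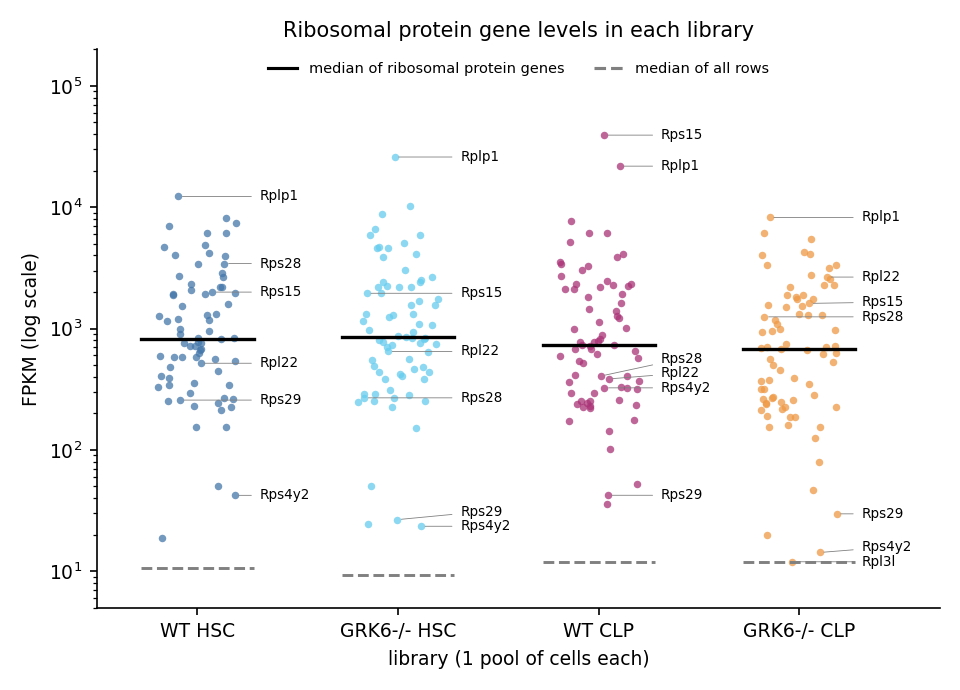
FPKM of each ribosomal protein gene with a row under its own symbol (points, log scale) in the 4 libraries, with the median of these genes (solid line) and of all rows (dashed line). The medians of the ribosomal protein genes lie between 681 and 850 FPKM in all 4 libraries, and Rps15 stands at the top of WT CLP alone.

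Rplp1, an acidic protein of the stalk that recruits elongation factors, had the highest mean over the 4 libraries. Its level was 12242 FPKM (WT) and 25894 (GRK6-/-) in HSC, and 21772 (WT) and 8231 (GRK6-/-) in CLP. It was the highest member everywhere but in WT CLP, where Rps15 exceeded it. Among the next by mean were Rps15 (11194 FPKM), Rpl32 (7279) and Rps20 (5565). Rpl32 had 7393, 10180, 6086 and 5459 FPKM in the order HSC (WT, GRK6-/-), CLP (WT, GRK6-/-), and Rps20 had 6154, 5897, 6145 and 4065 FPKM. The lowest means belonged to Rpl3l (3.00 FPKM), Rpl7l1 (24.8), Rpl21 (50.0), Rps29 (89.0) and Rps4y2 (101), of which Rpl3l, Rpl7l1 and Rps4y2 are relatives of a main gene. Rpl21, although low, differed little, with 50.7, 50.6, 51.9 and 46.9 FPKM.

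Members varied less between libraries than most genes. In the 71 members with a row of their own in all 4 libraries, the highest value was at the median 1.58 times the lowest, and 53 of them stayed under 2 times. The same ratio had a median of 3.91 over all 8249 genes with 4 rows, of which 18.1% stayed under 2 times. Among the 705 genes that are not members and have a mean of at least 100 FPKM, the median was 2.07, and 46.8% stayed under 2 times. The order of the members by level was also alike in each pair of libraries, with Spearman's rho between 0.925 and 0.957 across the 71 genes. These points share annotation and transcript lengths. Across the 705 abundant genes rho lay between 0.595 and 0.718.

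The small differences leaned in a common direction. With rows under other symbols used, 79 members could be ranked over the libraries, and the highest value fell in HSC for 70 of them (49 in GRK6-/- and 21 in WT) and in CLP for 9 (7 in WT and 2 in GRK6-/-). The lowest value fell in GRK6-/- CLP for 59 of the 79. Abundant genes leaned the same way, though less. In the 71 members with a row of their own everywhere, the highest value was in HSC for 88.7% and the lowest in GRK6-/- CLP for 73.2%, beside 57.7% and 38.0% of the 705 abundant genes and 47.1% and 28.6% of all 8249. Scaled to the same sum of FPKM, the lowest value was in GRK6-/- CLP for 60.6% of the members and 30.1% of the abundant genes.

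In HSC, 50 of 72 ribosomal protein genes were higher in the GRK6-/- library, most of them slightly, and 5 of 72 members differed by at least 2-fold, 2 higher and 3 lower. The comparison used the log2 ratio of FPKM + 1, for which 2-fold is a ratio of 1 in size. Of the 11651 genes compared, 37.3% passed this size, 19.3% higher and 18.0% lower, and of the genes with a mean of at least 100 FPKM 19.5% did. In each comparison of 2 libraries, abundant genes are those with this mean over the 2 libraries, and they include members. The members' median log2 ratio was 0.16, with quartiles of -0.02 and 0.35, against a median of 0.05 over all genes and 0.10 over abundant genes. Above 0 were 69.4% of the members, 51.8% of all genes and 55.1% of abundant genes, and 56 members lay within 0.5 of it. Scaled to the same sum of FPKM, 38 members were above 0 and 34 below, so the lean depends on the scale.

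The members past 2-fold in HSC were Rplp1 (log2 ratio 1.08), Rpl4 (1.05), Rps28 (-3.67), Rps29 (-3.22) and Rpl38 (-1.22). Rpl4, a large subunit protein that lines the exit tunnel, had 2208 (WT) and 4584 FPKM (GRK6-/-) in HSC, and 2341 and 1817 in the CLP libraries. Below the limit, the next higher ones were Rpl12 (0.72), Rps3 (0.72) and Rpl7 (0.71), and the next lower ones Rps4y2 (-0.82) and Rpl36 (-0.68). When both libraries were scaled to the same sum, Rplp1 and Rpl4 dropped under 2-fold, 3 members remained past it and the median was 0.03.

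In CLP the members lay on the other side of 0. The median log2 ratio of GRK6-/- against WT was -0.28, with quartiles of -0.42 and -0.04, and 64 of 76 members were below 0. Below 0 were 84.2% of the members, 48.5% of all genes and 56.9% of abundant genes. Past 2-fold were 9 members, 4 higher and 5 lower, where 49.9% of 11242 genes passed it (26.5% higher, 23.4% lower) and 25.2% of abundant genes did. Over all genes the median was 0.05, and over abundant genes -0.11. Scaling to the same sum moved the members' median to -0.17, with 53 of 76 members below 0.

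Lower in GRK6-/- CLP were Rps15 (-4.60), Rps4y2 (-4.41), Rpl36 (-1.48), Rplp1 (-1.40) and Rps12 (-1.24). Higher were Rpl22 (2.78), Rps28 (1.62), Rpl39 (1.38) and Rpl3l, which had 11.98 FPKM in this library and no row in WT CLP. Rps18, a protein of the small subunit's head, came next among the higher ones at 0.57. Its level was 1888 FPKM (WT) and 2403 (GRK6-/-) in HSC, and 2226 (WT) and 3308 (GRK6-/-) in CLP. Rps12 had 445, 709, 611 and 257 FPKM in that order, and Rpl36 had 904, 564, 796 and 285. Both were lowest in GRK6-/- CLP. Gm13611, named as a pseudogene of Rpl36, had 1301, 858, 949 and 567 FPKM in that order, more than Rpl36 in each library. Reads of such copies cannot be assigned with certainty. No member passed 2-fold in the same direction in HSC and CLP, and how many of all genes did was not counted. Of the 71 members compared in both populations, 41 (57.7%) were higher in GRK6-/- HSC and lower in GRK6-/- CLP than in WT. The same held for 25.2% of all genes and 31.8% of abundant genes that are not members. Scaled to the same sum of FPKM, it held for 26 members (36.6%), beside 25.5% of those abundant genes. GRK6-/- CLP is also the library with the high erythroid and B-lineage sums, whose part in these differences was not tested.

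**Figure D2:**
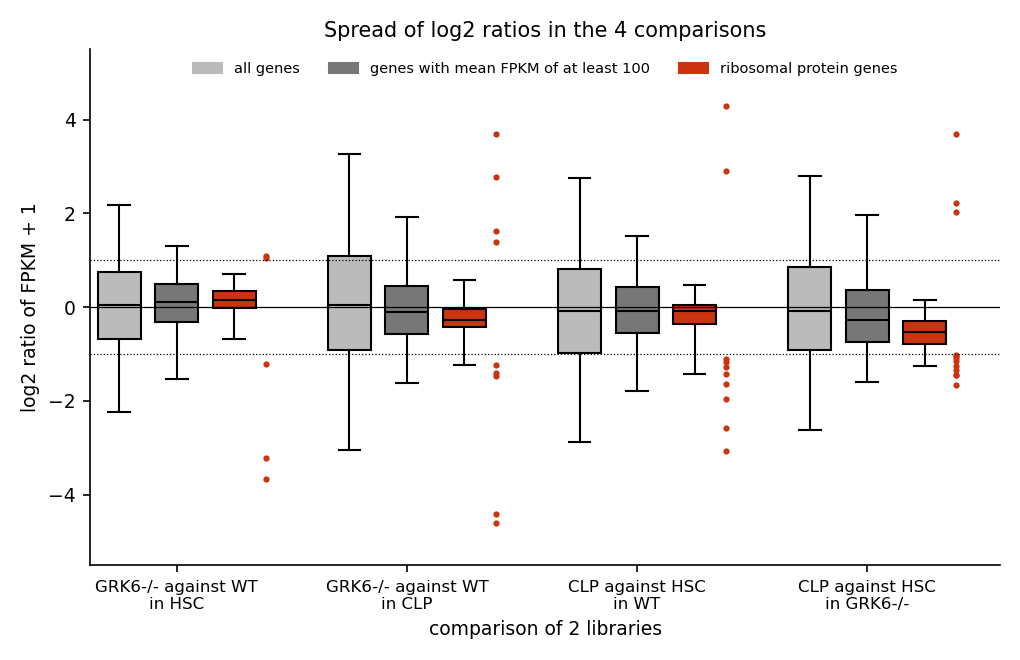
Log2 ratios of FPKM + 1 in the 4 comparisons, for all genes, abundant genes and ribosomal protein genes (boxes show quartiles and median, whiskers the 5th and 95th percentiles, red points single ribosomal protein genes past 2-fold, dotted lines 2-fold). The boxes of the ribosomal protein genes are narrow in all 4, and their medians run from 0.16 to -0.54. Abundant genes here include ribosomal protein genes.

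CLP were compared with HSC in each genotype, with the same 4 libraries as above. In WT, 10 of 75 members differed at least 2-fold, 2 higher in CLP and 8 lower, where 46.4% of 11256 genes did (21.7% higher, 24.7% lower) and 23.7% of abundant genes did. The members' median log2 ratio was -0.09 and that of all genes -0.08. Higher in CLP were Rps15 (4.30) and Rps4y2 (2.91), followed under the limit by Rpl7l1 (0.89), Rplp1 (0.83) and Rpl12 (0.47). Lower were Rps28 (-3.07), Rps29 (-2.58), Rpl38 (-1.96), Rpl39 (-1.65), Rps21 (-1.42), Rpl37a (-1.28), Rps13 (-1.18) and Rpl37 (-1.11). Of these 8, all but Rpl39 had their highest value of the 4 libraries in WT HSC.

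In the GRK6-/- libraries, 67 of 74 members were lower in CLP than in HSC, with a median of -0.54 and quartiles of -0.80 and -0.29. Its median was the farthest from 0 of the 4 comparisons. All genes had a median of -0.08, and abundant genes had one of -0.28. Below 0 were 90.5% of the members, 52.9% of all genes and 64.0% of abundant genes. Past 2-fold were 12 members, 3 higher and 9 lower, where 45.5% of 11727 genes passed (22.2% higher, 23.3% lower) and 26.3% of abundant genes did. Among the lower ones were Rplp1 (-1.65), Rps12 (-1.46), Rps27l (-1.45), Rpl4 (-1.33), Rps3 (-1.26), Rps2 (-1.08), Rpl37 (-1.03) and Rpl38 (-1.02). The higher ones were Rps28 (2.21), Rpl22 (2.03) and Rpl3l, which had no row in GRK6-/- HSC. After them came Rps18 (0.46) and Rps29 (0.15). Scaled to the same sum of FPKM, the median was -0.33 and 62 members were below 0, while 8 were past 2-fold, 3 higher and 5 lower.

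Rpl37 and Rpl38, both small proteins of the large subunit, were the members past 2-fold in the same direction in both genotypes. Rpl37 had 544 (WT) and 385 FPKM (GRK6-/-) in HSC, against 251 and 188 in CLP. Both HSC libraries were above both CLP libraries. Rpl38, which is needed in mouse embryos for the translation of a subset of Hox mRNAs, had 1154 and 494 FPKM in HSC and 297 and 243 in CLP, in the same order of genotypes. In Rpl38 too the HSC and CLP values did not overlap. How many of all genes met either criterion was not counted.

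In 7 of the 71 members (9.86%) the highest value was over 4 times the lowest. Of all genes 49.2% had such a range, and of the abundant genes that are not members 13.6%. Positions below are in mm9. Rps15, a small subunit protein near the decoding site, lies on chr10:79755176-79756861 on the plus strand. It had 1996 FPKM (WT) and 1952 (GRK6-/-) in HSC, and 39216 (WT) and 1611 (GRK6-/-) in CLP. The 3 other libraries were within 1.24 times of each other, and WT CLP was 19.6 times the next. It took 6.07% of all FPKM in that library and 0.27% to 0.31% elsewhere. The row covered the same interval in all 4 libraries to within 2 bases.

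Rps4y2 (Entrez 66184) is named as Y-linked in the files, but its row lies on chr6:148303178-148304118 on the plus strand. It had 42.2, 23.5, 325 and 14.3 FPKM in the order HSC (WT, GRK6-/-), CLP (WT, GRK6-/-). Like Rps15 it was high in WT CLP only, at 7.69 times the next library. In WT CLP 5 of 258 genes with at least 300 FPKM were at least 5 times higher than in any other library, and Rps15 and Rps4y2 were among them, with Ncl, Hist1h2ai and Mir1931 as the others (all named after their values were seen). In each of the 3 other libraries 3 to 6 genes met this, none of them a member.

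Rpl22, a large subunit protein at the tunnel exit that is known for its role in lymphocyte development, lies on chr4:151699987-151708180 on the plus strand. Its level was 518 FPKM (WT) and 648 (GRK6-/-) in HSC, and 384 (WT) and 2655 (GRK6-/-) in CLP. The last value was 4.10 times the next, and the others were within 1.68 times of each other. Rpl39, a short protein of the tunnel exit on chrX:34622515-34625179 on the minus strand, had 1304, 1758, 415 and 1082 FPKM in the same order of libraries. Here WT CLP was the low one, and the next was 2.61 times higher.

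Rps28, a small subunit protein near the mRNA exit, lies on chr17:33959982-33961443 on the minus strand. It had 3434 FPKM (WT) and 269 (GRK6-/-) in HSC, and 407 (WT) and 1249 (GRK6-/-) in CLP. From high to low the libraries lay in the order WT HSC, GRK6-/- CLP, WT CLP, GRK6-/- HSC, and the ratio of GRK6-/- to WT was below 1 in HSC and above 1 in CLP. Rps29, a zinc-binding small subunit protein on chr12:70258709-70260173 on the minus strand, had 257 FPKM in WT HSC and 26.6 FPKM in the GRK6-/- one, and in CLP it had 42.3 (WT) and 29.7 (GRK6-/-). WT HSC was 6.08 times the next. At the estimated depth and the longest coding transcript, the values of Rps29 in GRK6-/- HSC and GRK6-/- CLP rest on at most about 39 and 32 fragments. These are few for a member, as the median member had 1839 to 3508 when counted the same way.

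**Figure D3:**
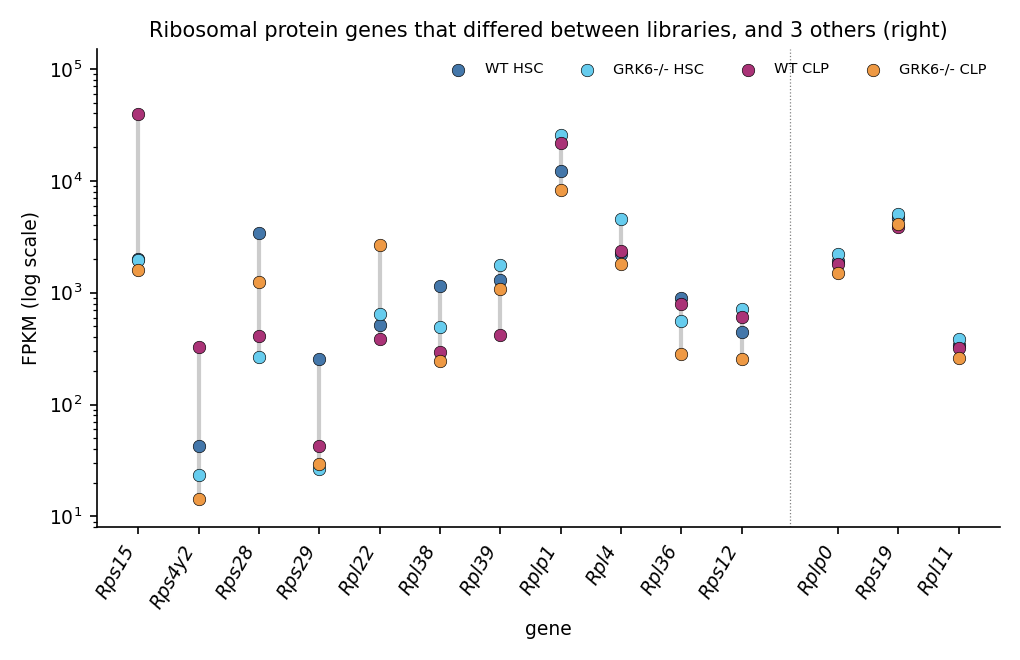
FPKM (log scale) in each library for the 7 ribosomal protein genes with a highest value over 4 times the lowest, for 4 others past 2-fold between genotypes (Rplp1, Rpl4, Rpl36, Rps12), and for Rplp0, Rps19 and Rpl11 on the right. Rps15 and Rps4y2 are high in WT CLP only, Rpl22 in GRK6-/- CLP only and Rps29 in WT HSC only, while the points of the 3 genes on the right lie close together.

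Members were also read by role, in short lists. Of all members, 6.94% passed 2-fold between genotypes in HSC and 11.8% in CLP. Between CLP and HSC 13.3% did in WT and 16.2% in GRK6-/-. The counts of each list below are to be read beside these shares. The stalk is made by Rplp0, which anchors it, and the acidic Rplp1 and Rplp2. Rplp0 had 1916 FPKM (WT) and 2205 (GRK6-/-) in HSC, and 1811 (WT) and 1515 (GRK6-/-) in CLP, and Rplp2 had 3932, 3027, 2696 and 2187. Of these 3 genes only Rplp1 passed 2-fold, in both comparisons of genotype and between the GRK6-/- libraries. Rplp2 was lower in GRK6-/- HSC than in WT HSC (-0.38) where Rplp1 was higher. A further row, the pseudogene Rplp2-ps1, had 6489, 6518, 5771 and 4694 FPKM, more than Rplp2 itself in each library, and reads of such near-identical copies cannot be assigned with certainty.

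Rpl5 and Rpl11 carry the 5S rRNA into the large subunit and, when free, bind and inhibit Mdm2. Neither passed 2-fold in any of the 4 comparisons. Rpl5 had 224, 290, 226 and 226 FPKM in the order HSC (WT, GRK6-/-), CLP (WT, GRK6-/-), and Rpl11 had 339, 384, 324 and 262. Of the 8 genes listed for the tunnel exit, where the new chain leaves the ribosome, 7 could be compared (not Rpl26). Rpl22 and Rpl39 passed 2-fold between genotypes in CLP and none did in HSC, where their median log2 ratio was -0.02, below that of all members. Rpl17, Rpl19, Rpl23a, Rpl31 and Rpl35 passed it in no comparison. Of the 4 listed for the mRNA channel and decoding (Rps2, Rps3, Rps15, Rps23), only Rps3 and Rps15 could be compared between genotypes, since Rps2 and Rps23 lacked rows of their own in some libraries. Of these, Rps15 passed 2-fold in CLP. Rps3 had 4006, 6620, 3392 and 2759 FPKM. Rps27a, made as a fusion with ubiquitin, had 1180, 1306, 879 and 960 FPKM and passed 2-fold nowhere.

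Genes with a link to Diamond-Blackfan anaemia or to the 5q- syndrome were also listed, 11 in all. Of the 10 that could be compared, none passed 2-fold between genotypes in HSC or CLP, and none did between CLP and HSC in WT, while 1 was lower in CLP by over 2-fold in GRK6-/-. Of all members 6.94%, 11.8%, 13.3% and 16.2% passed in these 4 comparisons, so such counts among 10 genes do not set them apart. Rps19, the gene most often affected in that anaemia, had 4690 FPKM (WT) and 5072 (GRK6-/-) in HSC, and 3873 (WT) and 4135 (GRK6-/-) in CLP. Rps14, whose loss is tied to the anaemia of the 5q- syndrome, had 2675, 2258, 2315 and 2273 FPKM in that order. The median log2 ratio of the 10 genes was 0.09 between genotypes in HSC and -0.26 in CLP, beside 0.16 and -0.28 for all members.

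Several ribosomal proteins have a paralogue encoded by a second gene. Rpl22l1, the paralogue of Rpl22, had 760 FPKM (WT) and 778 (GRK6-/-) in HSC, and 730 (WT) and 718 (GRK6-/-) in CLP. Its 4 values lay close together while those of Rpl22 did not. Its share of the pair was therefore 59.5% (WT) and 54.6% (GRK6-/-) in HSC, and 65.5% (WT) and 21.3% (GRK6-/-) in CLP. Rps27l, a p53 target, had 561, 874, 327 and 319 FPKM in that order, above Rps27 in each library. Both HSC values exceeded both CLP values, a separation that was not counted over all genes. Rps27 had 332 FPKM in WT HSC, and 232 (WT) and 124 (GRK6-/-) in CLP, and in GRK6-/- HSC its locus carried a row named Gm9846 with 164 FPKM.

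Rpl7l1 had 18.8, 24.7, 35.5 and 20.1 FPKM, which was 2.22% to 4.42% of its pair with Rpl7. Rps4y2 made up 12.4% of its pair with Rps4x in WT CLP and 0.76% to 1.87% elsewhere, and Rps4x itself had 2213, 2205, 2288 and 1876 FPKM. Rpl36al, which the naming pattern does not take, had 1019, 871, 818 and 557 FPKM, between 64.4% and 71.9% of its pair with Rpl36a. Rpl3l, known from heart and skeletal muscle, had a row only in GRK6-/- CLP, with 11.98 FPKM, or at most about 46 fragments at the estimated depth. It had no row in the 3 other libraries, and in WT HSC a row named Ndufb10 spans its locus. Rpl10l and Rpl39l, the paralogues of Rpl10 and Rpl39 known from testis, had no row.

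**Figure D4:**
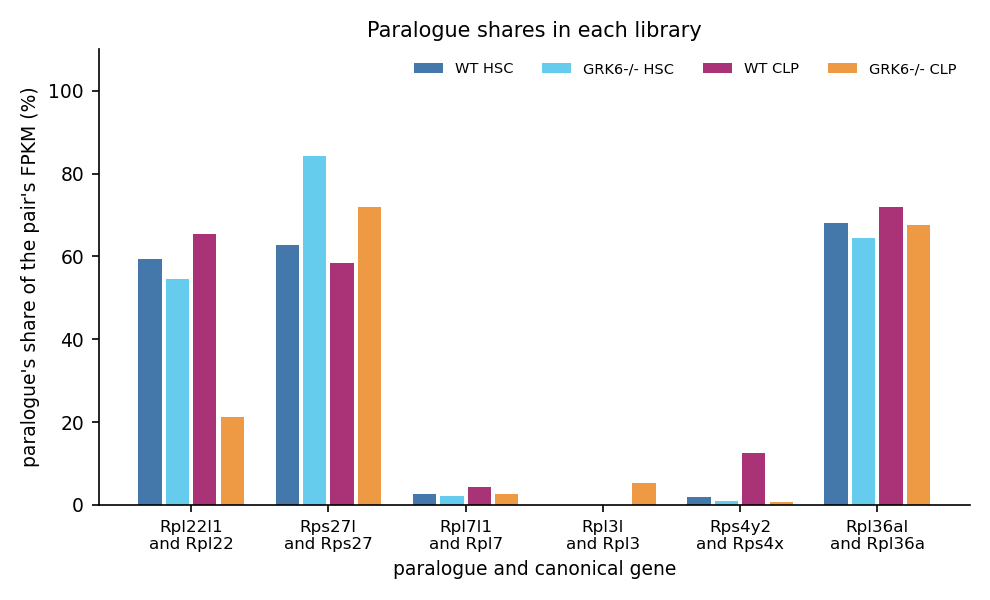
Share of the paralogue in the summed FPKM of paralogue and canonical gene (percent, bars from 0) in the 4 libraries. The share of Rpl22l1 is 21.3% in GRK6-/- CLP and at least 54.6% in the other libraries, while Rpl36al stays between 64.4% and 71.9%.

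Most missing members were listed under another name. Of the 80 members, 76 (WT) and 75 (GRK6-/-) had a row of their own in HSC, and 75 (WT) and 78 (GRK6-/-) in CLP. Apart from Rpl3l, each missing member was listed in a joint row with a small RNA or a pseudogene, or its locus carried another symbol, and was left out of that comparison. Rpl13a shared a row with Snord33 and Mir5121 in 3 libraries, at 3582 (WT HSC), 4119 (WT CLP) and 2773 FPKM (GRK6-/- CLP), beside 2194 under its own name in GRK6-/- HSC. Rps2 shared one with Snora64 in both WT libraries, at 467 FPKM (HSC) and 542 (CLP), and its own rows had 748 and 352 FPKM in the GRK6-/- libraries. Rps23 was listed as Gm15450 at 2345, 1761 and 1725 FPKM in WT HSC, WT CLP and GRK6-/- CLP, and under its own name at 2502 in GRK6-/- HSC. Over the 4 libraries the highest of these values was 1.88 times the lowest for Rpl13a and 2.12 times for Rps2.

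In GRK6-/- HSC, Rps21 shared a row with Mir3091 (4043 FPKM, against 8115 in WT HSC and 3022 and 2302 in the WT and GRK6-/- libraries of CLP) and Rpl34 with Rpl34-ps1 (1283). Rpl30 was listed as Gm12191 in WT CLP, at 1045 FPKM. The locus of Rpl26, which is no member by symbol here, carried the pseudogene name Gm15772 (2801 to 4037 FPKM) in all 4 libraries. Reading the rows under other symbols in their place gave shares of summed FPKM about 1 point higher in 3 libraries.

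Members past 2-fold were fewest among mRNAs of middle length. When members were split by their median annotated coding transcript, the shortest class (345 to 602 bases, 23 to 26 members compared) held 4 of the 5 members past 2-fold between genotypes in HSC and 5 of the 9 in CLP. It held 6 of 10 between CLP and HSC in WT and 6 of 12 between the GRK6-/- libraries. The middle class (604 to 862 bases, 24 members) held at most 1 in any comparison. The longest class (867 to 3706 bases, 24 to 26 members) held 1 in HSC, 3 in CLP, 3 in WT and 6 between the GRK6-/- libraries, there as many as the shortest. Spearman's rho of length with the log2 ratio was 0.24 over 71 members in HSC, 0.16 over 75 in CLP, 0.35 over 74 in WT and 0.15 over 73 in GRK6-/-. FPKM divides by length, so a short gene rests on fewer fragments at the same FPKM. Whether fragment numbers play a part in the counts above was not tested. Other genes were not counted by length class, so the counts cannot be called particular to the members. Without members under 600 bases, 1 member was past 2-fold between genotypes in HSC and 4 in CLP.

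**Figure D5:**
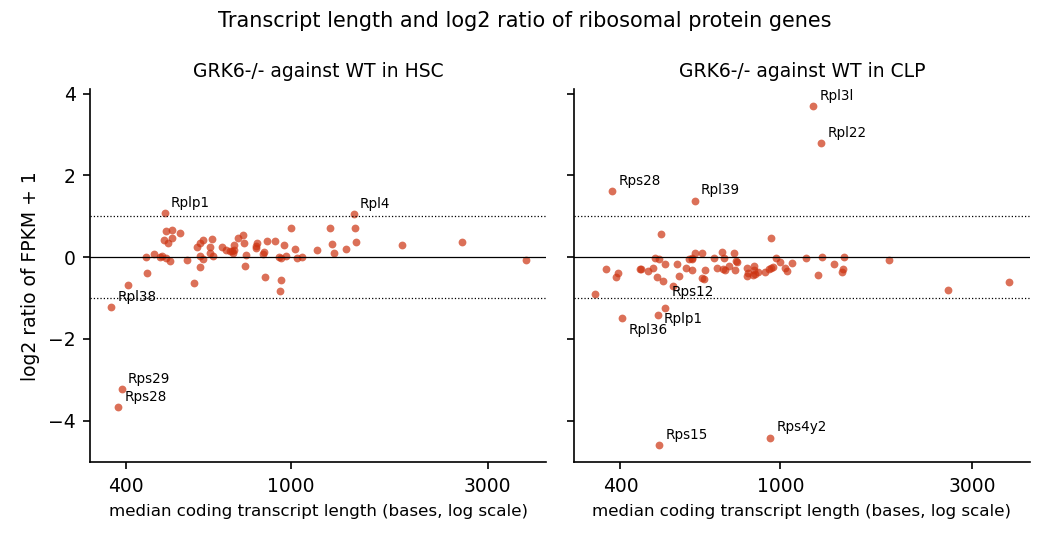
Log2 ratio of FPKM + 1 of GRK6-/- against WT in HSC (left) and CLP (right) against the median annotated coding transcript length (bases, log scale), 1 point per ribosomal protein gene, with those past 2-fold (dotted lines) named. In HSC, Rps28, Rps29 and Rpl38 lie at the short end, and in CLP Rpl22 and Rpl3l are among the longer ones.

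Genes of the ribosome that the naming pattern does not take were also read. Fau, which encodes a ubiquitin-like fusion with a small subunit protein, had 978 FPKM (WT) and 786 (GRK6-/-) in HSC, and 879 (WT) and 619 (GRK6-/-) in CLP. Gnb2l1, which encodes the scaffold Rack1 on the small subunit, had 3466, 4380, 3235 and 3011 FPKM in that order. Neither passed 2-fold in any comparison.

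The genes that build ribosomes were read too. They lie far below the members in level. Their share past 2-fold was above that of all genes between genotypes in HSC and between the GRK6-/- libraries. It was below that of all genes between genotypes in CLP and between the WT libraries. Of 70 listed factors of rRNA transcription, processing and assembly, whose median level was 18.2 to 25.9 FPKM, 31 of 67 compared (46.3%) passed 2-fold between genotypes in HSC, 20 higher and 11 lower, with a median log2 ratio of 0.38. In CLP 28 of 65 (43.1%) did, 13 higher and 15 lower, with a median of 0.02. These shares can be read beside the 37.3% and 49.9% of all genes. By direction, all genes passed in 19.3% (higher) and 18.0% (lower) in HSC, and in 26.5% and 23.4% in CLP. Their median was 0.05 in each. Between CLP and HSC, 25 of 65 (38.5%) passed it in WT, 9 higher and 16 lower, with a median of -0.30. In GRK6-/- 37 of 67 (55.2%) did, 10 higher and 27 lower, with a median of -0.72. All genes passed in 46.4% (21.7% higher, 24.7% lower) in WT and 45.5% (22.2% higher, 23.3% lower) in GRK6-/-, with a median of -0.08 in each.

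In HSC the largest positive ratios among these factors belonged to Bysl and Rrp7a, which had rows only in GRK6-/- HSC (17.7 and 10.7 FPKM), and to Polr1a, the largest subunit of RNA polymerase I (log2 ratio 3.10). The largest negative log2 ratios belonged to Taf1a (-3.94), Rrp1b (-3.38) and Riok1 (-2.12). In CLP the higher ones were led by Gnl3 (3.72), Ddx10 (3.03) and Riok2 (2.63). The lower ones were led by Ncl (-6.27), Dkc1, which had no row in GRK6-/- CLP, and Nop16 (-3.50). Ncl, the nucleolar protein nucleolin, had 39.3 FPKM (WT) and 46.0 (GRK6-/-) in HSC, and 2704 (WT) and 34.0 (GRK6-/-) in CLP. It was high in the same library as Rps15 and Rps4y2.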

How the data were processed

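Reads had been mapped by the authors on mm9 with tools of the Tuxedo suite (TopHat 1.4.0 per the submitters' processing notes), and the version of the quantifier is not given in the sources used here. The deposited values are FPKM, 1 per gene row and library, from cDNA primed with oligo-dT and amplified by 20 + 10 cycles of PCR. From them, rows of 1 symbol were summed and log2 ratios of FPKM + 1 computed, with a pseudocount of 1. A member without a row counted as 0 unless a joint row, or another symbol on at least 90% of the same locus, held it. It was then left out of that comparison. Genes at 0 in both libraries were not compared.

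No test was made, since each group is 1 library, and counting error was only estimated. Depth was inferred from the steps of low FPKM. The members and all lists were chosen with earlier results of these data known. Genes named were the 5 highest and lowest by mean, the 5 largest differences each way per comparison, those past 2-fold in the same direction in both genotypes, members without a row and role lists. Naming the other members past 2-fold or over 4 times in range goes beyond that rule. Some genes that the rule names are not reported here. Positions and transcript lengths came from GENCODE M1 (NCBIM37, the same build as mm9). Scripts were tested on simulated data. Alternatives were other pseudocounts, filters, scalings, row choices and thresholds. Software was pandas 2.3.3, numpy 2.4.6, matplotlib 3.10.9 and scipy 1.17.1 under Python 3.11.15.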

Additional observations from a re-analysis of the deposited data

Results flagged for a closer look

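On the deposited scale, the direction of the difference between genotypes was not the same in HSC and CLP for the members as a whole and for 2 single members past 2-fold in both populations. The median log2 ratio of GRK6-/- against WT over the members was 0.16 in HSC and -0.28 in CLP. Abundant genes leaned the same way, with medians of 0.10 and -0.11. Scaled to the same sum of FPKM, the members' medians were 0.03 and -0.17. In HSC 38 members were then above 0 and 34 below, so the lean there depends on the scale. Rplp1 had a log2 ratio of 1.08 in HSC and -1.40 in CLP. Rps28 had one of -3.67 in HSC and 1.62 in CLP. With 1 library per group these differences were not tested.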

How the results depend on the processing

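Each comparison rests on 2 libraries without replicates, so no call has an error and no library could be left out. No paired analysis was possible because each group holds 1 library and no test was made. Of 163 values recomputed under an alternative, 141 stayed close to the reported one (within 1.5 times for counts and spreads, 0.1 for medians of log2 ratios, 1 point for shares) and 22 moved, and no median changed sign by more than this. Some alternatives could hardly move a value. Taking the highest row per symbol changed none, and scaling a whole library barely alters a spread. The tally therefore does not measure how firm the results are. Scaled to the same sum of FPKM, members past 2-fold between genotypes in HSC were 3, those lower by 2-fold for CLP against HSC in GRK6-/- were 5 in place of 9, 38 of 72 members were above 0 in HSC in place of 50, and the median log2 ratio was 0.032 in HSC, -0.17 in CLP and -0.33 for CLP against HSC in GRK6-/-. These shares were added after seeing the data: on that scale the highest value was in HSC for 85.9% of members and the lowest in GRK6-/- CLP for 60.6%, and 36.6% were higher in GRK6-/- HSC and lower in GRK6-/- CLP than in WT. At a 1.5-fold limit 14 members passed in HSC, 14 in CLP and 35 for CLP against HSC in GRK6-/-. Without members under 600 bases, chosen after seeing the data, 1 passed in HSC, 4 in CLP, 4 for CLP against HSC in WT and 6 in GRK6-/-. The members' share of summed FPKM without rows over 5000 FPKM was 16.6% (WT) and 15.3% (GRK6-/-) in HSC, and 14.8% (WT) and 15.9% (GRK6-/-) in CLP. GRK6-/- CLP then no longer had the lowest share, but that cut removed different members from each library. With rows under other symbols the share was 22.0%, 23.0%, 25.9% and 17.15% in that order. Further alternatives to the share were chosen after seeing the data. Without Rps15 it was 19.9% in WT CLP, and without all globin rows it was 17.4% in GRK6-/- CLP.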
